A study of Mus musculus with 12 samples.

Results

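CpG-sparse windows inside gene bodies were defined as fixed 500-bp bins of the mouse autosomes (mm10) that held 3 to 8 cytosines listed in every library, lay inside a protein-coding gene, and had their centre more than 5 kb from any annotated transcription start site. This rule used no measured methylation value, and it found 19279 windows among 73824 bins with at least 3 shared cytosines (26.1%), in 6802 of 20665 autosomal protein-coding genes. DNA methylation had been profiled by reduced representation bisulfite sequencing (RRBS), which reads fragments released by a restriction enzyme whose site holds a CpG and so samples CpG-poor sequence thinly, in 12 libraries of immortalized mouse embryonic fibroblasts (iMEFs). The experimental line carried R26M2rtTA/+;TetOcre;Sdhcfl/fl and the control line R26M2rtTA/+;TetOcre;Sdhcfl/wt, so both could express Cre under doxycycline (1 microgram/mL) and the control kept an unfloxed copy of Sdhc, which encodes a membrane anchor subunit of succinate dehydrogenase. Both lines were treated with doxycycline, and days count from its start. Each line gave 1 library at day 0, 5, 9, 12, 16 and 20. The control group includes its day 0 library, while that of the experimental line was left out of its group. The comparison, experimental (Sdhc fl/fl, 5 libraries of days 5 to 20) against control (Sdhc fl/wt, 6 libraries), asked how gene-body methylation away from promoters differed after loss of SDHC.

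Each genotype was represented by 1 immortalized line, so genotype and line cannot be told apart, and the libraries of a line were time points of that line, so every p-value below measures the spread between time points. The files give a percent methylated per cytosine without read counts. The depth per site is therefore unknown, and the number of cytosines listed, from 932307 (control day 12) to 1716381 (control day 5), is the only sign of library size. A beta value of a window is the mean over its cytosines, on a scale from 0 to 1. The single bin with 3 or more cytosines in Sdhc was not among these windows, so they carried no check of the rearranged gene.

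In mammalian cells most CpGs outside promoters and CpG islands are methylated, and the body of a transcribed gene is usually methylated from shortly after its start to its end. Regions of intermediate or low methylation inside genes often mark enhancers or alternative promoters. Methyl groups are removed through oxidation of 5-methylcytosine by TET enzymes, which are 2-oxoglutarate-dependent dioxygenases that succinate inhibits, and this is why SDH-deficient cells are studied for DNA hypermethylation.

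The windows were spread over long genes. Their centres lay a median of 19131 bp and at most 777478 bp from the nearest start site, and the median host gene was 98711 bp long. The largest number of windows in 1 gene was 59, in Wwox, while 3101 genes held a single window. The median window held 4 cytosines and 8373 held 3. Only 152 windows lay in more than 1 gene. Adjoining windows had similar levels (Pearson's r = 0.69 across 1270 pairs in the control mean), and the likeness fell to 0.40 at 1 to 2 kb and 0.17 at 20 to 100 kb. These correlations are across windows that share libraries and are descriptions.

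The genome sequence of the windows in this build was not used here, so the sequence at the start site of 3 host genes is shown instead, to set the start of a gene beside the differing window in its body. In each, RefSeq's GRCm38.p6 sequence runs 5′ to 3′ on the gene's strand from 250 bases before to 50 after the start site, and capitals mark the CpGs that RRBS measured in all 12 libraries. Ddx31 (plus strand, chr2:28840156-28840455) and Dse (minus strand, chr10:34207186-34207485) held windows that were higher in the experimental line, and Trhde (minus strand, chr10:114802253-114802552) held 1 that was lower.
Ddx31: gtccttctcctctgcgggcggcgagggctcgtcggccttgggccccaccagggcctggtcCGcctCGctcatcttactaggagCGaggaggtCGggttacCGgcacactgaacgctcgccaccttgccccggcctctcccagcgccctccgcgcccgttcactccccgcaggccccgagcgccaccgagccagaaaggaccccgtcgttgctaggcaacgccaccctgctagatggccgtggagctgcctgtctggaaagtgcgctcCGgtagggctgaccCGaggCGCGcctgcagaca
Dse: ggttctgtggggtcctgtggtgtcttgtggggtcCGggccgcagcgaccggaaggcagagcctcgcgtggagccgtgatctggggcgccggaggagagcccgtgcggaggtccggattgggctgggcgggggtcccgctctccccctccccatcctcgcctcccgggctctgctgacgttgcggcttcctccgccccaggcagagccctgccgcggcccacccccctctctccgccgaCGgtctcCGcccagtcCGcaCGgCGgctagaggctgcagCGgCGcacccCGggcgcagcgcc
Trhde: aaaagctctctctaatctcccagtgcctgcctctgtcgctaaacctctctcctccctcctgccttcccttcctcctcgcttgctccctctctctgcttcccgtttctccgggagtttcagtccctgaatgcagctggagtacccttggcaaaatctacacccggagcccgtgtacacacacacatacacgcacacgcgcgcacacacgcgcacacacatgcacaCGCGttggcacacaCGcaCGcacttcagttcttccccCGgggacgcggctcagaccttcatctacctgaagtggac
The 9 measured CpGs of Ddx31 were almost unmethylated in every library (0 to 0.0101), as were the 9 of Dse (0 to 0.0533). The mean of the 5 measured CpGs of Trhde was 0.286 in experimental and 0.112 in control libraries, and the libraries overlapped (0.0148 to 0.404 against 0.00317 to 0.254).

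CpG-sparse gene-body windows were highly methylated, and slightly more so in the experimental line. The mean beta value over all 19279 windows was 0.779, 0.788, 0.784, 0.773 and 0.778 in the experimental libraries of days 5, 9, 12, 16 and 20, and 0.771, 0.766, 0.769, 0.769, 0.766 and 0.763 in the control libraries of days 0 to 20. The lowest experimental library, day 16, lay just above the highest control library, day 0, so the groups did not overlap. The group means were 0.780 ± 0.00562 (SD, n = 5) and 0.767 ± 0.00282 (SD, n = 6), a difference of 0.0129 (exact two-sided permutation test, p = 0.0022, the smallest that 462 assignments allow). The experimental line already stood at 0.779 at day 0, 0.00775 above the control line on that day. With pairing by day (days 5 to 20, replicate block) the difference was 0.0136 and the exact paired permutation test gave p = 0.062, the smallest that 5 pairs allow.

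**Figure D1:**
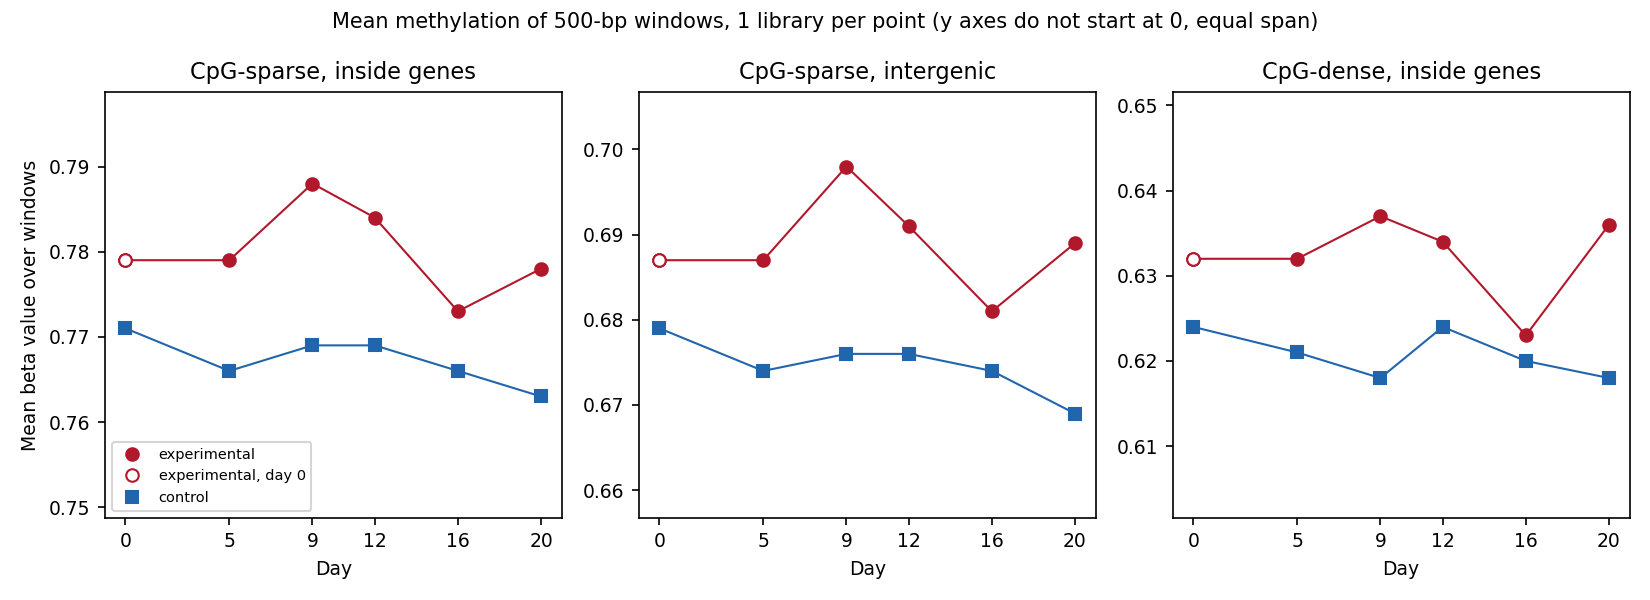
Mean beta value (y axis, unitless, cut to an equal span in each panel) against day (x axis) for 19279 CpG-sparse gene-body windows, 11726 CpG-sparse intergenic windows and 1395 CpG-dense gene-body windows, 1 library per point, experimental in red (day 0 open) and control in blue. In the left panel every experimental point, 0.773 to 0.788, lies above every control point, 0.763 to 0.771, and the same order is seen in the intergenic panel.

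The shift was not larger in gene bodies than in CpG-sparse windows outside genes. Within each library, the gene-body windows stood 0.0910 ± 0.00166 above the 11726 intergenic windows in the experimental line and 0.0925 ± 0.000579 in the control line, and this gap differed by -0.00151 between the lines (exact permutation test, p = 0.061, adjusted p = 0.12 over 2 comparisons). Without experimental day 5 or without day 12 the unadjusted p was 0.024 (exact permutation test), with the gap again smaller in the experimental line. Over the 1395 gene-body windows with 9 or more cytosines the gap was 0.148 ± 0.00322 and 0.146 ± 0.00211, a difference of 0.00156 (p = 0.35, adjusted p = 0.35, exact permutation test). The size of the gaps shows that sparse windows inside genes were the most methylated of these 3 kinds in every library.

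More windows were highly methylated and fewer were intermediate in the experimental line. On average 60.9% ± 0.960 of the windows were above a beta value of 0.8 in experimental libraries against 58.0% ± 0.984 in control libraries, a difference of 2.90 percentage points (exact permutation test, p = 0.0022, adjusted p = 0.0032 over 3 shares). Intermediate windows, from 0.2 to 0.8, made up 35.4% ± 0.932 and 37.6% ± 0.486 (difference -2.17, p = 0.0022, adjusted p = 0.0032, exact permutation test). For both of these shares the groups did not overlap. Windows under 0.2 were few, 3.75% ± 0.331 against 4.47% ± 0.553, and overlapped between the lines (difference -0.724, p = 0.032, adjusted p = 0.032, exact permutation test). This last difference missed the threshold, at p = 0.056 or 0.071 (exact permutation test), without any 1 of experimental day 5, 12 or 16 or control day 0, 12 or 16. With limits of 0.1 and 0.9 in place of 0.2 and 0.8, the share above the upper limit differed by 1.29 points (p = 0.43, exact permutation test) and the intermediate share by -0.731 (p = 0.71, exact permutation test). Beside this, the share of windows at exactly 1 ran from 3.26% in the experimental library of day 16 to 30.2% in the control library of day 12, which listed the fewest cytosines, and the part of library size in these shares was not tested.

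**Figure D2:**
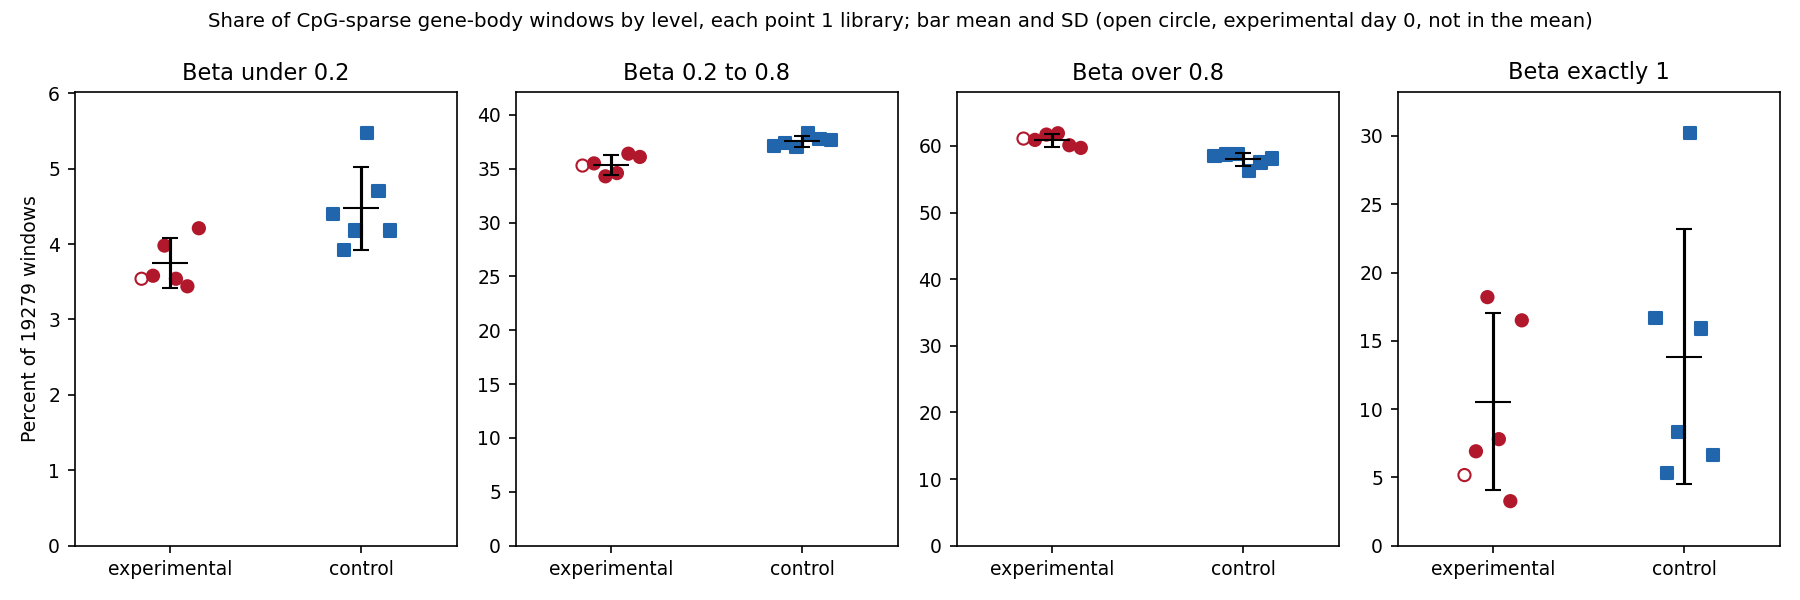
Percent of the 19279 windows (y axis) with a beta value under 0.2, from 0.2 to 0.8, over 0.8 and at exactly 1, each point 1 library of the experimental (red) or control (blue) line, with mean and SD in black and experimental day 0 as an open circle outside the mean. The intermediate and high shares separate the lines, while the share at exactly 1 spreads from 3.26 to 30.2% over the libraries of both.

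Levels varied more with the position of a window in its gene than between the lines. Methylation rose along the gene, from 0.747 in the experimental and 0.734 in the control libraries in the first 25% of the gene's length to 0.803 and 0.790 in the last 25%. It was lowest in the 1012 windows more than 100 kb from any start site, at 0.714 and 0.698, against 0.793 and 0.781 in the 7114 windows at 10 to 25 kb. Windows in genes over 200 kb averaged 0.746 and 0.733, and those in genes under 25 kb 0.803 and 0.792. The difference between the lines had the same sign in every one of these classes. At the limits of the rule nothing changed abruptly: windows with 8 cytosines averaged 0.760 and 0.748 and bins with 9 averaged 0.741 and 0.732, and windows 5.0 to 5.5 kb from a start site averaged 0.763 and 0.752 beside 0.763 and 0.749 just outside that distance.

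Windows were also grouped by their level at day 0, and 4632 were intermediate in both lines at day 0, and over days 5 to 20 these averaged 0.608 ± 0.00839 in experimental and 0.587 ± 0.00570 in control libraries (difference 0.0217, exact permutation test over 5 against 5 libraries, p = 0.0079, adjusted p = 0.024 over 3 strata, no overlap). They already stood apart at day 0, at 0.590 and 0.567, a difference of 0.0230. The 9431 windows high in both lines at day 0, then at 0.923 and 0.938, differed later by 0.00591 (0.912 ± 0.00433 against 0.906 ± 0.000697, p = 0.032, adjusted p = 0.032, exact permutation test). The 489 windows low in both lines, at 0.0667 and 0.0494 on day 0, differed later by 0.00463 (0.0860 ± 0.00225 against 0.0813 ± 0.00237, p = 0.016, adjusted p = 0.024, exact permutation test). The remaining 4727 windows, in different classes in the 2 lines at day 0, differed by 0.0220 later and by 0.0361 at day 0 and were not tested. The strata were chosen on the day 0 libraries, so a low or high stratum is bound to lie nearer the middle later and no change from day 0 is read from it. They were not tested against each other, and the tests were added after the data were seen.

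Single windows were compared with limma on M-values over all 73824 bins. At an adjusted p under 0.05 (Benjamini-Hochberg), 297 of the 19279 windows were higher and 126 lower in the experimental line. This was 2.19% of the windows, beside 2.29% of all bins, 2.17% of the intergenic sparse windows and 3.80% of the dense gene-body windows, so the share called was that of the background. The call in each direction was also near the background, 1.54% higher and 0.654% lower against 1.52% and 0.768% over all bins. The median absolute difference of the 423 called windows was 0.251 in beta value, and 412 of them had the same sign at each of the 5 later days. The 5 experimental and 6 control values did not overlap in 843 windows (4.37%, against 4.67% of all bins). No window passed with a replicate block by day over days 5 to 20, where 3297 had an unadjusted p under 0.05, and all 423 kept their direction. Over the same days without the block, 318 windows were called and 3379 had an unadjusted p under 0.05 (limma). In the main comparison, which adds control day 0, 3476 windows (18.0%) had such a p, against 17.4% of all bins. Leaving out 1 library at a time gave from 182 (without control day 20) to 502 (without control day 12) called windows. It left under 423 by more than 1.5 times also without experimental day 5 (198), day 12 (209), day 16 (243) or day 20 (266) and without control day 5 (272), day 9 (241) or day 16 (262). For the windows and gene means named below, the number of these 11 fits in which the adjusted p (limma) rose to 0.05 or more is given with the highest p among them, and called ones with no such number stayed under 0.05 in all 11.

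Most windows that were higher were intermediate in the control and high in the experimental line. This was so for 184 of the 297 (62.0%), and 33 more (11.1%) were above 0.8 in both lines. Only 24 higher windows were under 0.2 in the control, 5 of them in both lines. Among the 126 lower windows, 42 (33.3%) were high in the control and intermediate in the experimental line and 35 (27.8%) were above 0.8 in both. A single window, in Ptprr, was above 0.8 in the control and under 0.2 in the experimental line.

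The 12 windows that were higher by the widest margin lay in Ddx31, Baiap2, Gdf6, Sema6a, Deptor, Prdm16, Ankfn1, Cflar, Chd1l, Dse, Mturn and Tcf4, and in all 12 the lines did not overlap. In Ddx31, a DEAD-box RNA helicase gene, the window at chr2:28867001-28867500 was at 1.00, 1.00, 1.00, 0.980 and 1.00 in the experimental libraries and at 0.286, 0.631, 0.442, 0, 0.459 and 0.284 in the control libraries of days 0 to 20. The means were 0.996 ± 0.00877 and 0.350 ± 0.215 (adjusted p = 0.0110, limma), and the experimental line was also at 1.00 at day 0. The window lay 26844 bp from the nearest start site, in a gene whose own start was unmethylated in both lines.

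Baiap2 encodes IRSp53, an adaptor protein of actin-rich membrane protrusions, and its window (chr11:119989001-119989500) was at 0.888, 0.742, 0.778, 0.714 and 1.00 in the experimental line against 0.0860 to 0.352 in the control line (adjusted p = 0.0276, limma, lost in 6 of 11 fits, highest 0.0637). In Gdf6, a ligand of the BMP family, the experimental libraries were at 0.854, 0.90, 0.797, 0.837 and 0.645 and the control libraries between 0.0754 and 0.327 (adjusted p = 0.00986, limma). In Cflar, whose product holds back caspase-8, the window (chr1:58723501-58724000) was at 0.917 to 0.984 in the experimental and 0.175 to 0.513 in the control libraries, with the lowest control value at day 12 (adjusted p = 0.00501, limma). Baiap2, Gdf6 and Cflar were already higher at day 0, by 0.414, 0.506 and 0.439.

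Dse, which encodes the epimerase that makes dermatan sulfate, had a window (chr10:34188501-34189000) at 0.978, 1.00, 0.970, 0.925 and 0.974 against 0.537, 0.558, 0.613, 0.20, 0.306 and 0.583 (adjusted p = 0.00674, limma). In Deptor, an inhibitor of mTOR, the ranges were 0.717 to 0.857 and 0 to 0.469 (adjusted p = 0.0428, limma, lost in 9 fits, highest 0.0970). The window of Chd1l, a chromatin remodeler of the DNA damage response, ran from 0.850 to 1.00 and from 0.228 to 0.595 (adjusted p = 0.0249, limma, lost in 3 fits, highest 0.0553). The others, in Sema6a (a transmembrane semaphorin), Prdm16, Ankfn1, Mturn and Tcf4, had mean differences of 0.591, 0.539, 0.525, 0.498 and 0.492. The calls of Ankfn1 and Mturn were lost in 5 and 2 fits (highest adjusted p = 0.0643 and 0.0552, limma).

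Among the 12 windows that were lower by the widest margin, the largest difference was in Ptprr, a receptor-type tyrosine phosphatase gene, where the window at chr10:116266501-116267000 was at 0.321, 0.0625, 0.0833, 0 and 0 in the experimental libraries of days 5 to 20 and at 1.00, 1.00, 0.853, 1.00, 0.808 and 0.792 in the control libraries (adjusted p = 0.0151, limma). At day 0 it stood at 0 and 1.00, the widest difference between the lines on that day among the windows shown here. In Gata6, a zinc finger factor of endoderm and heart, the experimental libraries were at 0.347, 0.202, 0.156, 0.223 and 0.319 and the control libraries at 0.701 to 0.911 (adjusted p = 0.00658, limma). The groups were well apart, as they were at day 0 (0.321 and 0.707).

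Hoxc4 and Hoxb3 are homeobox genes of body axis patterning. The Hoxc4 window (chr15:103027001-103027500) was at 0.0939 to 0.216 against 0.462 to 0.792 (adjusted p = 0.00856, limma), and the Hoxb3 window (chr11:96332501-96333000) at 0.0380 to 0.269 against 0.338 to 0.736 (adjusted p = 0.0190, limma). Dmrt3, a DM-domain factor, was at 0.250 to 0.529 against 0.879 to 1.00 (adjusted p = 0.0151, limma). In Trhde, whose product degrades thyrotropin-releasing hormone, the window at chr10:114792001-114792500 was at 0.121, 0.221, 0.0385, 0.243 and 0.107 against 0.499 to 0.717 in the control line (adjusted p = 0.0110, limma). Those in Camk2b, Zfhx3, Dlc1, Rbfox3 and Necab2 had mean differences of -0.510, -0.476, -0.443, -0.427 and -0.406. The call of Dlc1 was lost without experimental day 12 (adjusted p = 0.0523, limma), and those of Camk2b, Zfhx3 and Rbfox3 in 8, 4 and 10 fits (highest adjusted p = 0.0685, 0.0594 and 0.0992, limma).

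**Figure D3:**
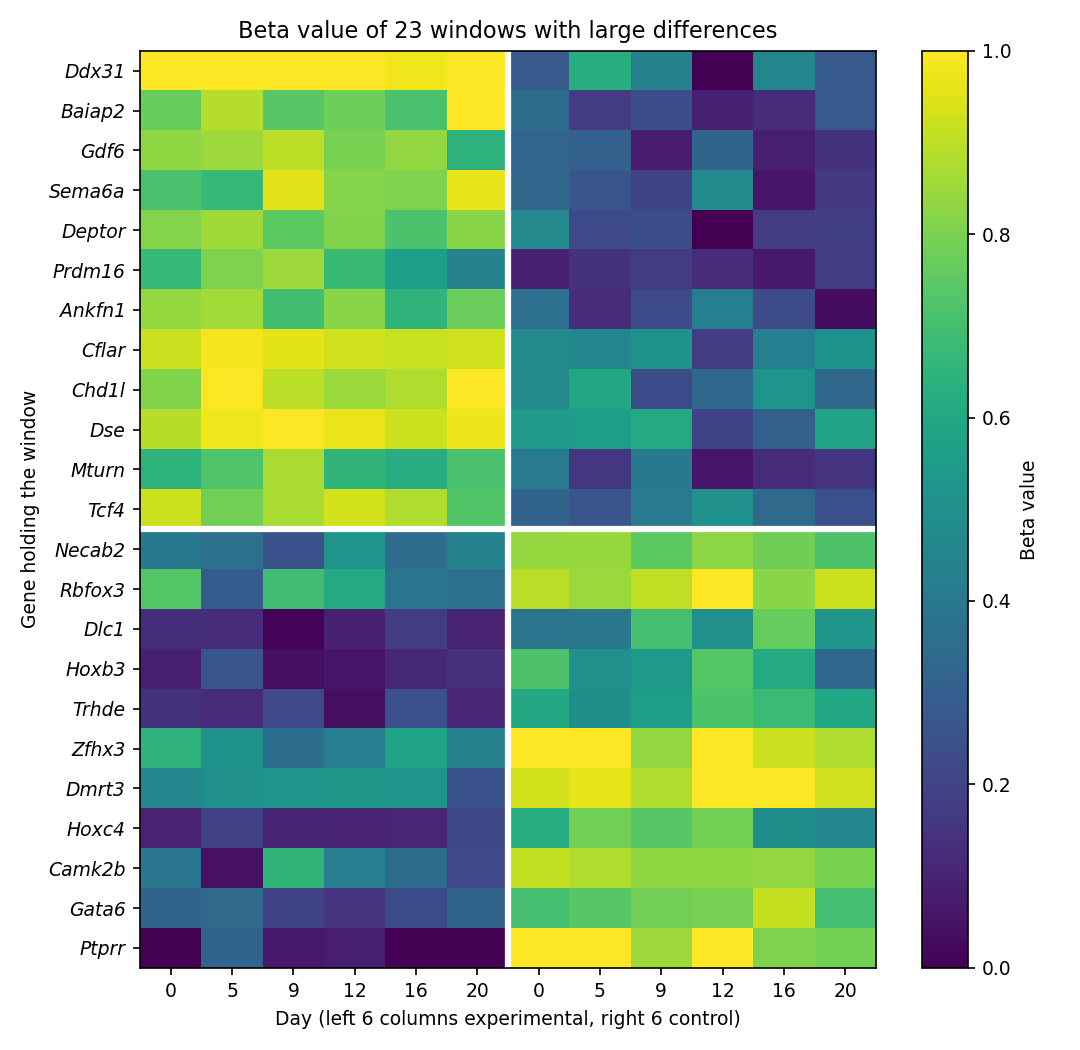
Beta value (colour, 0 to 1) of 12 windows that were higher and 11 that were lower in the experimental line, among those with the widest margins (rows, named by gene) in the 6 experimental and 6 control libraries (columns, by day). The contrast between the left and right blocks is present in the day 0 columns of most rows, and the Ddx31 row is at or near 1.00 in all experimental libraries.

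Where measured, the listed start sites of these genes did not show differences of that size. The most upstream site listed for a gene was taken. For several genes, among them Hoxc4, Zfhx3, Baiap2 and Rbfox3, it lay inside the gene and not at its outer end. The same holds for Dst among the other genes named here. Of the 24 genes, 13 had a listed site with at least 3 measured cytosines in the 2 kb around it (1500 bp before to 500 after). Of the 13, 9 were under 0.2 in both lines, and 1 differed by more than 0.1. That gene was Trhde, at 0.285 ± 0.0911 in experimental and 0.127 ± 0.0357 in control libraries (0.166 to 0.381 and 0.0609 to 0.165), while its window differed by -0.463. Over all 59 genes named here, 45 had a listed start site, 33 had such a value, and 25 of these were under 0.2 in both lines. Caln1 alone differed by more than 0.2 (0.746 ± 0.128 against 0.490 ± 0.174 over 4 cytosines), with libraries that overlapped (0.575 to 0.906 and 0.266 to 0.750). These start-site values were not tested.

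Much of the difference in single windows was present at day 0. Of the 423 called windows, 218 differed by 0.2 or more at day 0, 205 (48.5%) by less than 0.2, and 97 (22.9%) by less than 0.1. The experimental day 0 library, which the test did not use, was closer to the experimental than to the control group mean in 363 windows (85.8%, beside 60.0% of all 19279 windows). Across all 19279 windows, the day 0 difference and the mean difference of days 5 to 20, which share no library, had r = 0.40. Called windows had the same sign at day 0 and later in 398 cases (94.1%), though the control library of day 0 was part of the test that called them.

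**Figure D4:**
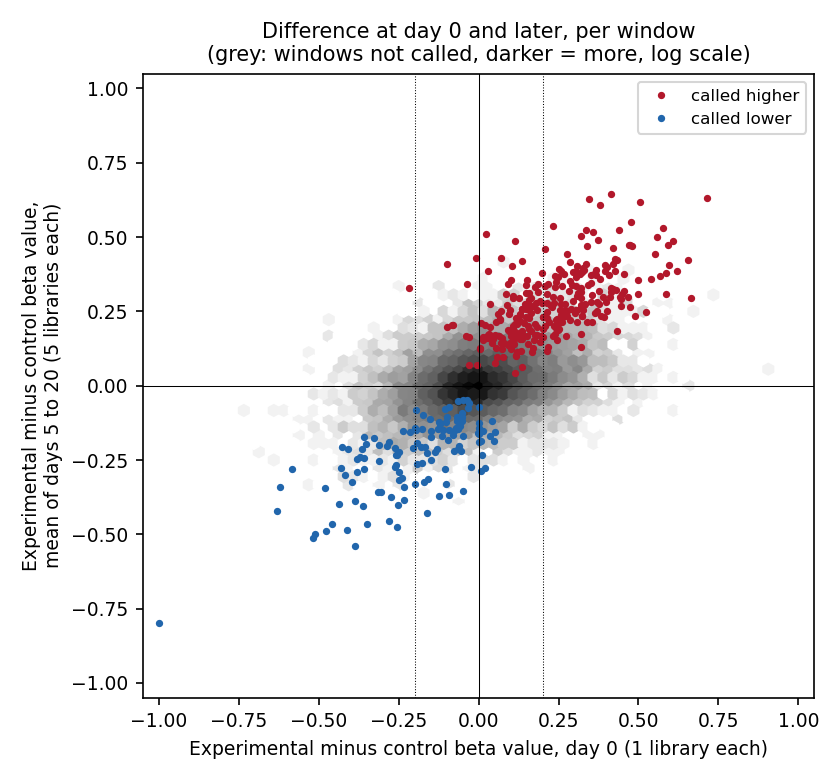
Experimental minus control beta value of each window at day 0 (x axis, 1 library per line) and averaged over days 5 to 20 (y axis, 5 libraries per line), with the 297 windows called higher in red, the 126 called lower in blue and all others as grey density. The called windows lie along the rising diagonal, and 205 of the 423 fall between the dotted lines at a day 0 difference of 0.2 either way.

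Some called windows had differed by less than 0.1 at day 0 and were chosen for it. Such a choice requires that at least 1 line later departs from its day 0 library. With 1 library per line at day 0, no change over time is read from these windows. In Pcnx2 the window was at 0.536 in the experimental and 0.543 in the control line at day 0. Over days 5 to 20 it stood at 0.695, 0.891, 0.729, 0.889 and 0.977 in the experimental libraries. The control libraries of these days were at 0.500, 0.442, 0.333, 0.333 and 0.432 (adjusted p = 0.0330, limma). The experimental values lay above their day 0 value and the control values below theirs. In Scn8a, which encodes a neuronal voltage-gated sodium channel, the experimental libraries went from 0.698 at day 0 to 0.821 to 0.931, and the control libraries from 0.796 to 0.311 to 0.664 (adjusted p = 0.0408, limma). In Tle3, a Groucho-family corepressor gene, and Nuak1, a kinase gene related to AMPK, the later control values lay below that of day 0. Control Tle3 was at 0.826 at day 0 and between 0.339 and 0.579 later, while the experimental libraries stayed between 0.802 and 0.958 (adjusted p = 0.0370, limma). Control Nuak1 went from 0.867 to between 0.406 and 0.754, and experimental Nuak1 from 0.895 to between 0.889 and 1.00 (adjusted p = 0.0175, limma). The calls of Pcnx2, Scn8a and Tle3 were lost in 6, 10 and 8 fits (highest adjusted p = 0.0721, 0.0937 and 0.0818, limma).

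Among the windows that ended lower, Caln1, a calmodulin-like gene of neurons, went from 0.406 at day 0 to 0.218, 0.183, 0.178, 0.20 and 0.175 in the experimental line, while the control line started at 0.430 and stayed between 0.306 and 0.570 (adjusted p = 0.0190, limma). In Pate2 the experimental window went from 0.794 to between 0.380 and 0.662 and the control window from 0.773 to between 0.808 and 0.920 (adjusted p = 0.0302, limma). The window of Foxp1, a forkhead factor, was at 0.221 and 0.270 at day 0, and later at 0.0588 to 0.130 against 0.351 to 0.833 (adjusted p = 0.0486, limma). The highest of these control values was that of day 12, and the next was 0.381. Ablim1, an actin-binding LIM protein gene, went from 0.171 and 0.264 to 0.0974 to 0.177 and 0.347 to 0.655 (adjusted p = 0.0172, limma). The calls of Pate2 and Foxp1 were lost in 8 and 10 fits (highest adjusted p = 0.0653 and 0.109, limma).

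Adjoining windows shared their difference more than distant ones. The difference between the lines had r = 0.30 across the 1270 adjoining pairs, 0.056 at 1 to 2 kb and 0.021 at 20 to 100 kb. The 423 called windows lay in 394 genes. The genes with most called windows showed both kinds of pattern. In Slit3, a secreted ligand of Robo receptors, 3 of 20 windows were called, all higher, and 18 of the 20 differences were above 0. In Septin9, a cytoskeletal GTPase gene, 3 of 19 were called, all higher, and 15 differences were above 0. In Tcf4, a basic helix-loop-helix factor gene, 3 windows were higher and 1 lower of 16, with 9 differences above 0. In Prdm16, a regulator of brown fat and stem cells, 1 was higher and 2 lower of 38. Its higher window (chr4:154519501-154520000) was at 0.448 to 0.855 against 0.0684 to 0.181, and a lower window in the same intragenic stretch (chr4:154528501-154529000) at 0.767 to 0.909 against 0.936 to 1.00. That lower window lost its call in 9 fits (highest adjusted p = 0.0838, limma). The other lower window of Prdm16 (chr4:154458501-154459000) was at 0.577 to 0.768 against 0.853 to 0.942 (adjusted p = 0.0167, limma). It kept its call in all 11 fits. Each of the 3 Slit3 windows lost its call in at least 1 fit and at most 10, 2 of the 3 Septin9 windows in 2 and 10, and 3 of the 4 Tcf4 windows in 9 or 10 (highest adjusted p = 0.0990, 0.0990 and 0.0912, limma).

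The windows of each gene were also averaged to give a value for its body. Of 2330 genes with at least 3 windows, 135 had a higher (5.79%) and 26 a lower mean (1.12%) in the experimental line (adjusted p under 0.05, limma), which is 6.91% of these genes, and 541 (23.2%) had an unadjusted p under 0.05. With a replicate block by day, 37 were higher and 4 lower, and 36 of the 161 genes were called in both. Leaving out 1 library gave between 86 genes (without experimental day 12) and 173 (without control day 12). The count was lower by more than 1.5 times also without experimental day 5 (100), day 9 (104) or day 16 (98) and without control day 5 (89), day 9 (97) or day 20 (89). The median absolute difference of the called genes was 0.113, against 0.0310 over all 2330, and 148 of the 161 had the same sign on each later day. None of the windows was called on its own in 81 of the 161 genes. In the others the mean includes the called windows and is not separate support for them.

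Slit3 had gene means of 0.849, 0.882, 0.890, 0.886 and 0.884 in the experimental libraries and 0.760, 0.770, 0.782, 0.793, 0.760 and 0.779 in the control libraries (adjusted p = 0.00377, limma). All experimental values lay above all control values, and day 0 differed by 0.119. Sox6, a factor of chondrocyte and neural development, was at 0.840 to 0.867 against 0.660 to 0.739 over 6 windows (adjusted p = 0.00293, limma). The gene means higher by most were those of Rerg, a Ras-like growth inhibitor (0.672 ± 0.0328 against 0.434 ± 0.0743), Cdkl1 (0.761 ± 0.0916 against 0.528 ± 0.0537), Fam171a2 (0.831 ± 0.0748 against 0.607 ± 0.0613) and Baiap2 (0.809 ± 0.0506 against 0.592 ± 0.0535), each over 3 windows. Rerg differed by 0.0428 at day 0 and by 0.238 over the groups. The Baiap2 mean includes its called window described above.

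The gene means lower by most were those of Hoxb3 (0.158 ± 0.0734 against 0.430 ± 0.195, adjusted p = 0.0472, limma), Hid1 (0.486 ± 0.110 against 0.691 ± 0.0525), Lrrc36 (0.658 ± 0.0921 against 0.829 ± 0.0501) and Tbx15 (0.677 ± 0.0429 against 0.842 ± 0.0283). Tbx15, a T-box factor of skeletal and limb development, was at 0.716, 0.660, 0.706, 0.693 and 0.610 in the experimental libraries and between 0.814 and 0.893 in the control libraries (adjusted p = 0.00403, limma), and at 0.695 in the experimental line at day 0. The Hoxb3 means overlapped between the lines (0.0916 to 0.284 and 0.184 to 0.710), and their call was lost in 9 of the 11 fits (highest adjusted p = 0.0975, limma). Those of Hid1 and Lrrc36 were lost in 4 and 2 (highest adjusted p = 0.0567 and 0.0550, limma).

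Gene lists differed widely in level. Windows in synaptic, ion channel and axon guidance genes averaged 0.633 over the 12 libraries (range 0.621 to 0.652, 669 windows), the lowest of the 10 lists, and those in immune, developmental transcription factor and muscle genes averaged 0.701, 0.712 and 0.716. Higher levels were seen in extracellular matrix genes (0.840), actin cytoskeleton and adhesion genes (0.857) and chromatin genes (0.852). The succinate dehydrogenase, TCA cycle and glycolysis genes averaged 0.839, beside 0.774 over all windows. Expression of the genes was not examined here. Epithelial genes averaged 0.737 and Wnt, TGF-beta and Hedgehog genes 0.770. The synaptic and cytoskeletal lists were also apart in long genes. In genes over 100 kb the synaptic list averaged 0.634 (606 windows) and the cytoskeletal list 0.875 (116 windows), against 0.755 for all windows in such genes. Other lists changed with gene length. Developmental transcription factor genes averaged 0.749 over 100 kb and 0.594 up to 100 kb, below the 0.628 of synaptic genes up to 100 kb. Chromatin genes averaged 0.811 over 100 kb and 0.895 up to 100 kb. All windows in genes up to 100 kb averaged 0.792.

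**Figure D5:**
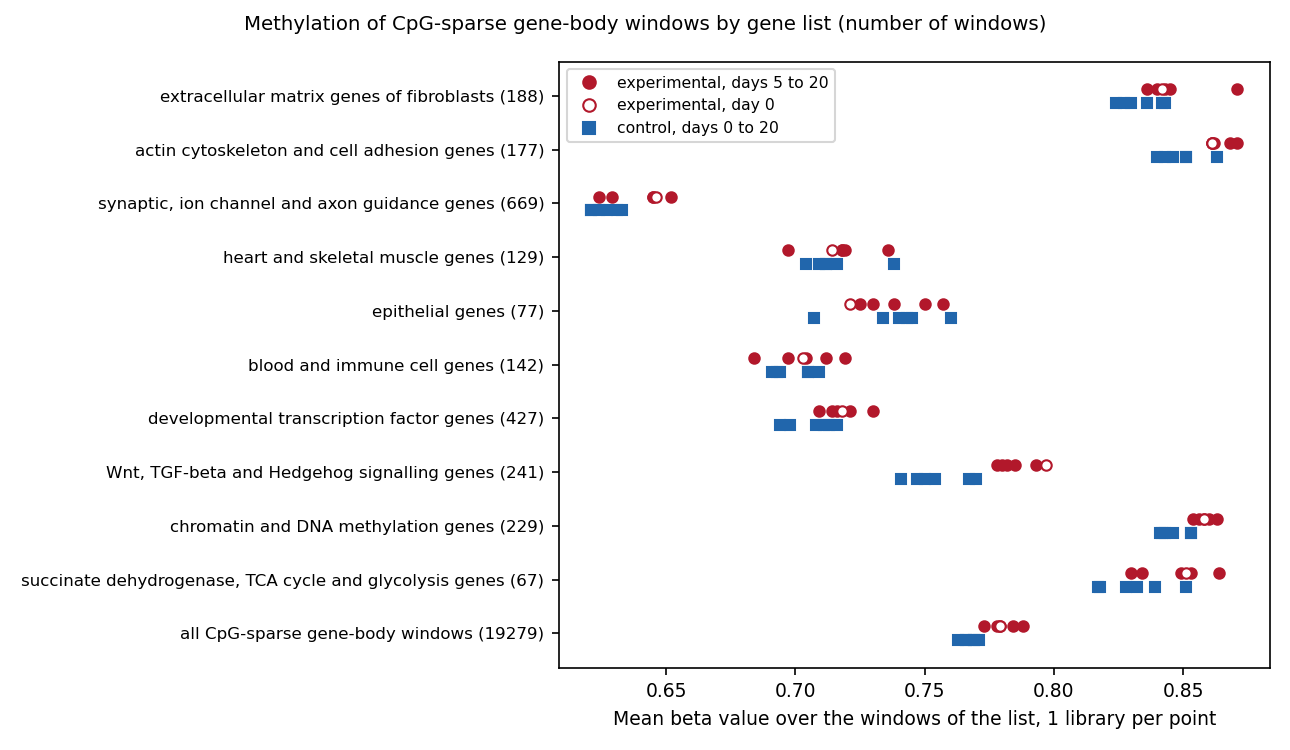
Mean beta value (x axis, unitless) over the windows of each gene list (rows, number of windows in parentheses), 1 library per point, experimental in red (day 0 open) above control in blue. Synaptic genes lie lowest, at 0.621 to 0.652, cytoskeletal and chromatin genes highest, and experimental points of days 5 to 20 and control points do not overlap in the Wnt, TGF-beta and Hedgehog list, the chromatin list and over all windows.

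Windows in Wnt, TGF-beta and Hedgehog signalling genes stood at 0.784 ± 0.00568 in the experimental and 0.755 ± 0.0114 in the control line, and were already at 0.797 and 0.767 at day 0. The libraries did not overlap (0.778 to 0.793 against 0.741 to 0.770), and the difference, 0.0287, compares with 0.0129 over all windows and was not tested against it. Of its 241 windows 6 were higher and 1 lower, 2.90% beside 2.29% of all bins, with a median difference of 0.0121 beside 0.00638. Sufu, which holds back Gli factors in the Hedgehog pathway, had a window at 0.190, 0.386, 0.148, 0.205 and 0.237 in the experimental line and at 0 in 5 of 6 control libraries, with 0.0403 at day 9 (adjusted p = 0.00498, limma). At day 0 it was at 0.246 in the experimental line. A window in Tgfbr2, the type II TGF-beta receptor, was at 0.896 to 1.00 against 0.693 to 0.821 (adjusted p = 0.0238, limma, lost in 3 fits, highest 0.0590). At gene level the receptor gene Acvr1, the mediator Smad3 and the planar polarity cadherin Celsr1 were higher, with differences of 0.112, 0.0822 and 0.106 (adjusted p = 0.0307, 0.0327 and 0.00901, limma). No other of the list's 35 gene means was called, beside 161 called of all 2330 (6.91%). The control values of Acvr1 ran from 0.615 at day 12 to 0.913, and the calls of Acvr1 and Smad3 were lost in 5 and 8 fits (highest adjusted p = 0.0672 and 0.0790, limma).

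Developmental transcription factor genes had 11 higher and 9 lower windows of 427 (4.68%, beside 2.29% of all bins), and their median difference was 0.00682. These calls lay in only 11 genes. Tcf4 held 3 higher and 1 lower, Prdm16 1 higher and 2 lower, and Sox6 held 2. A window of Tbx5, a T-box factor of heart and forelimb, was lower, at 0.0443 to 0.113 against 0.294 to 0.635 (adjusted p = 0.00650, limma). Gata6, Tcf4, Prdm16, Zfhx3 and Foxp1, described above, belong to this list too, and at gene level Sox6 was higher and Tbx15 lower. No other of the list's 42 gene means was called, beside 161 called of all 2330.

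The extracellular matrix and actin cytoskeleton lists held called windows near or under the share of all bins, all higher in the experimental line. Extracellular matrix genes had 3 of 188 (1.60%, beside 2.29% of all bins), in Nid2, Ltbp2 and Fbn1, which encode a basement membrane linker and microfibril proteins. The Nid2 window was at 0.765, 0.890, 0.926, 0.870 and 0.723 against 0.422 to 0.573, and the Fbn1 window at 0.90 to 1.00 against 0.624 to 0.815 (adjusted p = 0.0166 and 0.0495, limma). Both had differed at day 0, by 0.186 and 0.157. The gene means of Fbn1 and Nid2, which include these windows, were higher by 0.102 and 0.0705. No other of the list's 24 gene means was called, beside 161 called of all 2330. The calls of the Ltbp2 and Fbn1 windows were lost in 2 and 10 fits (highest adjusted p = 0.0554 and 0.0921, limma) and that of the Nid2 gene mean in 9 (highest 0.0844). Actin cytoskeleton and adhesion genes had 4 higher windows of 177 (2.26%, beside 2.29% of all bins), among them 1 each in Palld, Macf1 and Dst, which encode an actin-bundling protein and large cytoskeletal linkers. The Palld window was at 0.847 to 0.970 against 0.390 to 0.771 (adjusted p = 0.0190, limma) and had differed by 0.378 at day 0. The Dst window, whose libraries overlapped between the lines, lost its call in 6 fits (highest adjusted p = 0.0616, limma).

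Succinate dehydrogenase, TCA cycle and glycolysis genes held 67 windows in 25 genes, of which 2 were higher (2.99%, beside 2.29% of all bins), both in hexokinase genes, whose products start glycolysis. The Hk2 window was at 0.347, 0.278, 0.462, 0.235 and 0.625 in the experimental libraries and at 0 in 5 of 6 control libraries, with 0.0741 at day 5 (adjusted p = 0.00658, limma). The experimental line was at 0.267 at day 0. The Hk1 window was at 0.940, 0.939, 0.875, 0.857 and 0.585 against 0.391 to 0.564 (adjusted p = 0.0349, limma), and the day 20 value lay closest to the control range. The Hk1 call was lost in 9 fits (highest adjusted p = 0.0768, limma). The next window by p, in Got1, a glutamate-aspartate transaminase gene, did not pass (0.980 ± 0.0288 against 0.851 ± 0.143, adjusted p = 0.129, limma).

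Chromatin and DNA methylation genes had 3 higher and 1 lower windows of 229 (1.75%, beside 2.29% of all bins). The library means did not overlap (0.854 to 0.863 against 0.841 to 0.853, difference 0.0122). The same held over all windows, where the difference was 0.0129. At day 0 the list stood at 0.858 in the experimental and 0.853 in the control line. Kmt2c, a histone H3K4 methyltransferase gene, had a window at 0.946 to 1.00 against 0.760 to 0.866 (adjusted p = 0.0126, limma). At gene level the demethylase gene Kdm2b and the remodeler gene Chd9 were higher, by 0.0574 and 0.0919, with calls lost in 2 and 10 fits (highest adjusted p = 0.0519 and 0.0785, limma). No other of the list's 28 gene means was called, beside 161 called of all 2330.

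The synaptic list had 10 higher and 4 lower windows of 669 (2.09%), and this share and the 3 that follow stand beside 2.29% of all bins. The window of Slit1 was at 0.650 to 0.887 against 0.131 to 0.450, and that of the postsynaptic scaffold gene Dlgap1 at 0.717 to 0.815 against 0.379 to 0.631 (adjusted p = 0.0154 and 0.0130, limma). At gene level Dscaml1, Ctnna3 and Slit3 were higher, and Ntn1, which encodes the guidance cue netrin-1, was lower (0.674 ± 0.0239 against 0.803 ± 0.0566, adjusted p = 0.0247, limma). No other of the list's 71 gene means was called, beside 161 called of all 2330. The calls of Dscaml1, Ctnna3 and Ntn1 were lost in 11, 4 and 3 fits (highest adjusted p = 0.101, 0.0653 and 0.0541, limma). Muscle genes had 1 higher and 3 lower windows of 129 (3.10%), the lower ones being 2 of Camk2b, a subunit of a calcium-dependent kinase, and 1 of the sarcomere gene Ldb3 (lost in 8, 6 and 4 fits). Epithelial genes had 2 higher and 1 lower of 77 (3.90%), and the higher ones were in Tjp3 and in Cdh1, which encodes E-cadherin. The lower window, in the integrin gene Itgb6, was at 0.353 to 0.682 against 0.679 to 0.878, so the lines overlapped (adjusted p = 0.0337, limma). Its call was lost in 8 fits (highest adjusted p = 0.0785, limma). The gene mean of Cdh1, which includes the called window, was at 0.842 to 0.920 against 0.739 to 0.799 (adjusted p = 0.00850, limma). No other of the 12 epithelial gene means was called. Immune genes had 2 lower windows of 142 (1.41%), in Pax5 and Ebf1, both factors of B cells (lost in 7 and 9 fits), and their list mean was 0.703 ± 0.0137 against 0.70 ± 0.00768.

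Beside the differences between the lines, single libraries of the same line also differed. Between libraries of the experimental line, a median of 12.0% of the windows (range 6.46 to 18.9% over 15 pairs) differed by more than 0.2, and between control libraries 14.0% (6.94 to 25.8% over 15 pairs). Between the lines on the same day it was 17.9% (12.5 to 24.8% over 6 pairs). Without control day 12 the control and same-day values were 12.9% and 17.3%.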

How the data were processed

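RRBS libraries of 12 samples were analysed. Reads had been aligned to mm10 with Bismark by the authors, and the deposited values are percent methylated per cytosine of a CpG, without counts, so depth and counting error are unknown. Percent values were divided by 100 and averaged in 500-bp bins over the 606488 autosomal cytosines that every library lists. Genes and start sites came from RefSeq (GRCm38.p6), and the 5′ end of each gene was also taken as a start site. For 7796 of 47042 autosomal genes the strand was taken by symbol from the annotation of an earlier build (GENCODE vM1). For 13498 genes with no known strand, both ends were counted as start sites. All 70248 listed cytosines inside RefSeq start-site sequences fell on a CpG.

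Bins were tested with limma (version 3.58.1, R 4.3.3) on M = log2((beta + 0.01)/(1 - beta + 0.01)), control against experimental days 5 to 20, with Benjamini-Hochberg adjustment over all bins and a threshold of 0.05. The procedure was checked on simulated data. Values per library were compared by exact permutation. The windows named are, among called windows with the same sign on each later day, the 12 largest changes each way and the 4 each way with a day 0 difference under 0.1, then the genes with most called windows, the 4 gene means with the largest change each way, and up to 3 genes per list with the lowest p. Among these, 1 gene is not reported here. Members, lists and tests were chosen with earlier results of these data known. The day numbers shared by the lines name time points. Same-day deviations from the group means correlated by -0.0018 to 0.023 over 5 days. Where no strand was known for a gene (669 of 20665 protein-coding genes), position along the gene was not given. Alternatives are described at the end.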

Additional observations from a re-analysis of the deposited data

Results flagged for a closer look

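In 19 of 174 groups of 5 or 6 libraries examined, 1 library stood apart from the rest by more than Dixon's 95% critical value. Chance alone does so in about 1 of 20 groups of normally distributed values. Beta values are bounded, and where all other libraries are tied at 0 or 1 any departure is flagged. Many groups were also windows chosen for their differences, so the count cannot be set against that rate. The control library of day 9 had the widest gap between sparse and dense gene-body windows (0.151, the next at 0.147).

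Control libraries stood apart in 7 named windows. Day 12 was low in Cflar (0.175, nearest 0.433) and high in Foxp1 (0.833, nearest 0.381). Day 9 was high in Dlgap1 (0.631, nearest 0.448) and, above a group otherwise at 0, in Sufu (0.0403). Day 5 was low in Ebf1 (0.847, nearest 0.938) and above 0 in Hk2 (0.0741), and day 20 was above 0 in Pde4dip (0.0222).

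Experimental libraries stood apart in 10 named windows and in the gene mean of Hoxb3, where day 5 was high (0.284, nearest 0.141). Day 5 was high in Ptprr (0.321, nearest 0.0833) and low in Nuak1 (0.889, nearest 0.984) and Pate2 (0.380, nearest 0.615). Day 9 was low in Dst (0.834, nearest 0.951) and in Kit (0.959, all others at 1.00). Day 16 was low in Ddx31 (0.980, all others at 1.00), Dlgap2 (0.781, nearest 0.894) and Cdh1 (0.885, nearest 0.940). Day 20 was low in Dmrt3 (0.250, nearest 0.500) and Hk1 (0.585, nearest 0.857).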

How the results depend on the processing

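The values are percentages over few cytosines without depth, each genotype is 1 line and the libraries are its time points, so neither counting error nor a second line could be weighed. The mean over the windows kept its direction and exact permutation p = 0.0022 under 7 other choices (averaging over genes, the median window, experimental day 0 added, a 10 kb distance limit, 5 to 8 cytosines, invariant cytosines left out, strands merged) and had an exact permutation p = 0.0079 over days 5 to 20 alone (added after seeing the data). Without 1 replicate at a time it ran from 0.0111 to 0.0148.

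Paired by day (replicate block), the exact permutation test gave p = 0.062 for the mean (0.0136), for the intermediate share (-2.27) and for the high share (3.01), the smallest 5 pairs allow, and p = 0.12 for the low share (-0.739). With the same block, 0 windows were higher and 0 lower, and 37 and 4 gene means, though same-day libraries did not deviate together (2 of 5 days correlated best with their own). With limits 0.1 and 0.9 the shares differed by -0.556 (low), -0.731 (intermediate) and 1.29 (high), none past the threshold.

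Windows called higher and lower numbered 467 and 250 on beta values, 482 and 251 with an offset of 0.05, and 481 and 253 with experimental day 0. With a difference of at least 0.2, 73 windows were lower. Gene means called lower numbered 43 on beta values and 42 with experimental day 0. With a difference of at least 0.1, 81 gene means were higher, and with at least 0.2, 5 were higher and 2 lower. The cause of these changes was not tested. Leaving out replicates, windows higher ranged from 126 to 360, windows lower from 50 to 142, gene means higher from 71 to 139 and lower from 13 to 34. The gap to intergenic windows ranged from -0.00190 to -0.00103, the gap to dense windows from 0.00102 to 0.00292, and the low, intermediate and high shares from -0.840 to -0.526, from -2.44 to -1.90 and from 2.55 to 3.19. The low share stayed past the threshold in 5 of these 11 fits, and the gap to intergenic windows passed it in 2. The share of windows called was 1.60 to 2.27% under the other definitions of a window. With a day 0 limit of 0.1, 22.9% of called windows remained small at day 0. No named window or gene changed sign under any alternative, and 32 of the 68 named windows that passed stayed past the threshold without each replicate, as did 5 of the 8 gene means with the largest differences.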

Other observations

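The difference between the lines was seen on every autosome. It ran from 0.00417 on chromosome 15, where the experimental libraries averaged 0.784 and the control libraries 0.779, to 0.0204 on chromosome 19 (0.794 and 0.773). The libraries of the lines did not overlap on chromosomes 1, 2, 3, 8, 9, 16 and 19. Mean levels ranged from 0.758 and 0.741 on chromosome 2 to 0.810 and 0.796 on chromosome 3. These values were not tested, since windows of 1 chromosome share their libraries.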
